A study of Homo sapiens with 9 samples.

Results

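The globin genes HBZ, HBE1, HBG1, HBG2, HBA1 and HBA2 and the chaperone gene AHSP were followed in K562 cells depleted of the RNA helicase DHX34 or of UPF1. These 7 genes come from a list, by symbol, of embryonic, fetal and alpha globin genes with their chaperone, drawn up by known role and with earlier results of these data known, and no value in the tables decides membership. All 7 were found by symbol among the 58214 genes that had a quantified transcript. HBA1 and HBA2, and likewise HBG1 and HBG2, were also added up, because near-identical copies share reads, which left 5 units. K562 is an established human leukemia line of myeloid origin with erythroid features. All 9 libraries come from this line after siRNA transfection and were harvested on day 4, and they form 3 groups of 3. The SCR group received a non-targeting siRNA and carries the treatment label WT, the DHX34 group carries DHX34-kd and the UPF1 group UPF1-kd. No other allele or agent is given for any group. mRNA was enriched by its poly(A) tail before sequencing. The study's supplement calls the sequenced samples biological replicates, while the labels do not say how their cultures were kept apart, and each p-value measures the spread between these libraries.

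Hemoglobin is built from a pair of alpha-like and a pair of beta-like chains. HBZ encodes the embryonic zeta chain and HBA1 and HBA2 encode the same alpha chain. HBE1 encodes the embryonic epsilon chain and HBG1 and HBG2 encode the fetal gamma chains. AHSP, the alpha hemoglobin stabilizing protein, binds free alpha chains until a beta-like partner is found. K562 cells are known for expressing the embryonic and fetal chains. UPF1 is an RNA helicase at the core of nonsense-mediated decay (NMD), which degrades mRNAs whose translation ends too early, and DHX34 is a helicase that acts in the same pathway. The comparisons ask how the globin mRNAs and their chaperone differ when either helicase is depleted.

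The alpha-like genes lie on chromosome 16 and the beta-like genes on the minus strand of chromosome 11 (GRCh38, gene bounds of GENCODE release 44). HBZ spans 142728 to 154503, HBA2 172876 to 173710 and HBA1 176680 to 177522, and AHSP lies apart on the same chromosome at 31527900 to 31528803. HBG1 spans 5248269 to 5249857. HBG2 runs from 5253188 to 5505605 and HBE1 from 5268345 to 5505652, because both include transcripts with a distant first exon. The coding sequences of HBA1 and HBA2 have 426 bases and no difference. Those of HBG1 and HBG2 have 441 bases and differ at 2 positions, C227T and C410G, with the base of HBG1 first, the position counted from the first base of the start codon and the base of HBG2 last. A read from the coding part of an alpha globin mRNA therefore cannot be given to a copy, and one from a gamma globin mRNA only where it covers a difference. The windows below show this, each from the exon of the main transcript, 5′ to 3′ on the coding strand. Capitals mark the bases that differ between HBG1 and HBG2, or in HBE1 those that differ from HBG2.
HBG1 (chr11:5249442-5249470): cttgggagatgccaCaaagcacctggatg
HBG2 (chr11:5254366-5254394): cttgggagatgccaTaaagcacctggatg
HBE1 (chr11:5269528-5269556): cttTggagatgcTatTaaAAacAtggaCA
HBG1 (chr11:5248379-5248407): gaagatggtgactgCagtggccagtgccc
HBG2 (chr11:5253297-5253325): gaagatggtgactgGagtggccagtgccc
HBE1 (chr11:5268489-5268517): gaagCtggtgTctgCTgtCgccaTtgccc

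HBE1 differed from HBG2 at 8 and 6 of the 29 bases of these windows and at 73 of 441 coding bases, an identity of 83.4%. HBZ and HBA2 shared 68.5% of their coding bases, with 134 differences. The first 29 coding bases of the alpha-like genes are shown for the same contrast, with capitals where HBZ differs from HBA2.
HBA1 (chr16:176717-176745): atggtgctgtctcctgccgacaagaccaa
HBA2 (chr16:172913-172941): atggtgctgtctcctgccgacaagaccaa
HBZ (chr16:152910-152938): atgTCTctgAcCAAGAcTgaGaGgaccaT

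Library totals ran from 73478797 to 103625443 expected counts, which are the counts salmon assigns to transcripts. DHX34 had a log2 fold change of -1.23 (SE 0.05, adjusted p = 3.35e-07 in edgeR) in its own knockdown and UPF1 had -1.31 (SE 0.031, adjusted p = 2.4e-10 in edgeR) in its own, both against SCR. Of 16 erythroid markers, 14 had a mean of at least 1 TPM, the abundance of a transcript per length on a scale with the same total in every library, and their summed level was 1726 to 1776 TPM in SCR, 1774 to 1835 with DHX34 depleted and 1756 to 1838 with UPF1 depleted. The defining myeloid genes MPO, ELANE and CD14 had means under 0.1 TPM. The summed level of 14 myeloid markers was at most 15.6 TPM in SCR, 32.1 to 35.6 with DHX34 depleted and 13.1 to 14.1 with UPF1 depleted, most of it from lysozyme (LYZ). The 16 megakaryocytic markers summed to 136 to 146, 120.4 to 131 and 129 to 145 TPM, with PF4 and GP9 under 0.1 TPM. The 8 lymphoid markers summed to 25.1 to 26.0, 26.9 to 36.2 and 8.77 to 14.5 TPM. The part of these marker differences in the globin results was not tested.

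In the SCR libraries the globin genes were among the most abundant of all. By mean TPM, which is a level per length of transcript, HBG2 ranked 2 of 58214 genes, HBA1 8, HBE1 16, HBG1 19, HBA2 93 and HBZ 110. AHSP ranked 4033. HBG2 stood at 13174, 12348 and 12120 TPM in the 3 SCR libraries above every value of the other globin genes. HBA1 followed at 6623, 6955 and 6805 TPM, above every HBE1 value. HBE1 at 5902, 5457 and 5600 TPM and HBG1 at 5558, 5315 and 5331 TPM overlapped, so their order was not set. HBA2 at 2090, 2098 and 2109 TPM lay above HBZ at 1776, 1758 and 1763 TPM. AHSP was measured at 27.5, 26.9 and 27.5 TPM, from 514 to 655 expected counts, the fewest of the 7 genes. Ranks and order rest on the lengths in the authors' tables, which give the main HBG1 transcript 779 bases, against 587 in GENCODE release 44. In CPM, which takes no account of length, HBG1 averaged 2773 in SCR, above HBA1 at 2271 and HBE1 at 2179. In the DHX34 knockdown HBZ lay above HBA2, and the overlap of HBG1 and HBE1 remained. In the UPF1 knockdown all 7 genes were separated from their neighbors in the order, HBA1 from HBG1 by only 3932 against 3909 TPM.

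**Figure D1:**
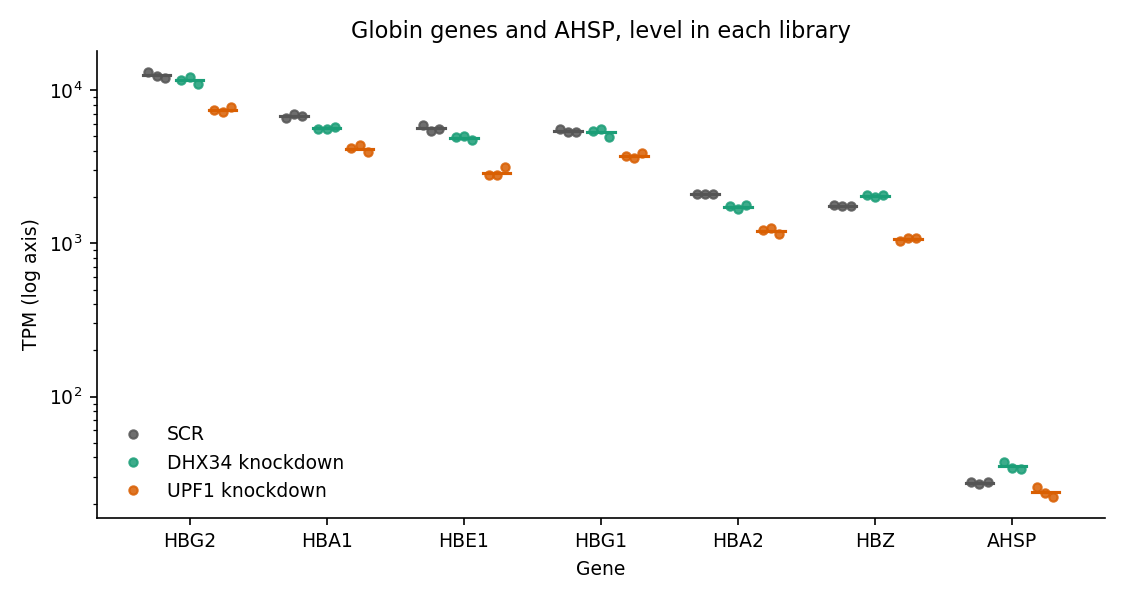
Level of each gene in TPM (log axis) in the 9 libraries, 3 points per group with a bar at the mean. All 6 globin genes lie lower in the 3 UPF1 knockdown libraries than in the 3 SCR libraries, HBZ lies higher in the DHX34 knockdown at 1998 to 2085 TPM, and AHSP lies near 30 TPM.

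UPF1 knockdown was accompanied by a broad loss of globin mRNA. All 5 units were called lower than in SCR at an adjusted p of at most 0.005, the limit of the study, while 25.3% of the 17182 genes tested were called, 12.9% lower and 12.4% higher. HBE1 had the largest change of the units, 2.15-fold, and the alpha, gamma and zeta globins fell 1.83-fold to 1.91-fold. AHSP fell 1.34-fold. Since these are bulk samples, fewer cells that express globin and less globin mRNA per cell cannot be told apart.

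Among the alpha-like genes, HBZ stood at 1037, 1080 and 1090 TPM in the UPF1 knockdown libraries, against 1758 to 1776 in SCR. The groups were far apart and its log2 fold change was -0.91 (SE 0.028, adjusted p = 9.79e-10 in edgeR). HBA1+HBA2 was at 8713, 9053 and 8915 TPM in SCR and at 5390, 5629 and 5083 TPM in the UPF1 knockdown. Every knockdown library lay below every SCR library, with a log2 fold change of -0.93 (SE 0.036, adjusted p = 5.05e-09 in edgeR). Taken singly, HBA2 had -1.02 and HBA1 -0.91, with the reservation that salmon split their reads.

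Among the beta-like genes, HBE1 stood at 2778, 2780 and 3139 TPM in the UPF1 knockdown, below every SCR library at 5457 to 5902. Its log2 fold change of -1.11 (SE 0.048, adjusted p = 1.31e-08 in edgeR) was followed by -0.87 (SE 0.036, adjusted p = 1.01e-08 in edgeR) for HBG1+HBG2. The gamma globins stood at 18732, 17664 and 17452 TPM in SCR and at 11151, 10825 and 11661 TPM in the UPF1 knockdown. HBG2 had a log2 fold change of -0.96 and HBG1 of -0.74 when the copies were fitted apart. In TPM the libraries of UPF1 knockdown and SCR did not overlap for any of the 5 units, as for 54% of all genes tested, and 6.8% of all genes were lower in this way.

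AHSP stood at 25.5, 23.3 and 22.2 TPM after UPF1 knockdown, below the SCR range of 26.9 to 27.5. Its log2 fold change of -0.43 (SE 0.086, adjusted p = 0.00177 in edgeR) passed the limit, but the call was lost without SCR replicate 1 or 3 or without UPF1 knockdown replicate 2 or 3, where edgeR adjusted p ran from 0.00504 to 0.00991. The scale matters here too. The median of all genes moved by 0.205 on the log2(TPM + 0.5) scale after UPF1 knockdown and by 0.016 after TMM scaling, the trimmed mean method of edgeR that sets the typical gene near 0. On TPM the log2 ratios of the means were -0.72 for HBZ, -0.73 for HBA1+HBA2, -0.96 for HBE1, -0.68 for HBG1+HBG2 and -0.21 for AHSP, all in the same direction, and AHSP then missed the limit (limma adjusted p = 0.0211). Of 15 tested erythroid markers 9 were also called lower, among them KLF1 (-0.40) and GATA1 (-0.29), and TFRC was called higher (0.40). Over all genes tested, 12.9% were called lower. Of the 9 markers 8 were also lower in mean TPM. The summed TPM of the erythroid markers was not lower, at 1756 to 1838 against 1726 to 1776 in SCR.

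DHX34 knockdown split the genes. HBA1+HBA2 and HBE1 were called lower, by 1.33-fold and 1.29-fold, and HBG1+HBG2, HBZ and AHSP did not pass the limit. Of the 17002 genes tested 10.4% were called, 4.86% lower and 5.54% higher. The comparison uses the same SCR libraries as that of the UPF1 knockdown, so the pair of comparisons is not independent.

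HBA1+HBA2 stood at 7370, 7299 and 7551 TPM in the DHX34 knockdown, below all SCR libraries at 8713 to 9053. The log2 fold change was -0.41 (SE 0.038, adjusted p = 4.23e-05 in edgeR), with -0.42 for HBA2 and -0.41 for HBA1 apart. HBE1 was at 4960, 5056 and 4725 TPM against 5457 to 5902, again without overlap. Its log2 fold change of -0.37 (SE 0.057, adjusted p = 0.000974 in edgeR) lost its call without SCR replicate 1 (adjusted p = 0.00628 in edgeR) or SCR replicate 3 (adjusted p = 0.00543 in edgeR), and on log2(TPM + 0.5) it was -0.20 and missed the limit (limma adjusted p = 0.0101). HBG1+HBG2 was at 17100, 17782 and 15904 TPM, and 1 of these lay within the SCR range of 17452 to 18732, so the groups overlapped in TPM. Its log2 fold change was -0.24 (SE 0.064, adjusted p = 0.0165 in edgeR), which was not called in this main fit. DESeq2 called it (adjusted p = 4.81e-05). So did edgeR without a filter on low counts (edgeR adjusted p = 1.61e-05) and with all 9 libraries in one fit (edgeR adjusted p = 0.00408).

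HBZ was the exception among the globins. It was measured at 2074, 1998 and 2085 TPM after DHX34 knockdown, above every SCR library at 1758 to 1776. On the TMM scale the log2 fold change was 0.07 (SE 0.039, adjusted p = 0.229 in edgeR) and it did not pass, while on log2(TPM + 0.5) it was 0.22 and passed (limma adjusted p = 0.00196). AHSP behaved likewise, at 37.5, 33.9 and 33.5 TPM against 26.9 to 27.5, with 0.21 (SE 0.088, adjusted p = 0.0994 in edgeR) under TMM and 0.35 (limma adjusted p = 0.00466) in TPM. The median of all genes moved by 0.161 in TPM and by 0.018 under TMM in this comparison. With that TPM median set to 0, an alternative chosen after the data were seen, HBZ stood at 0.00 and AHSP at 0.14, both short of the limit. Whether HBZ, AHSP and HBE1 passed the limit thus depended on the scale. HBA1+HBA2 passed under TMM and, at -0.26, on log2(TPM + 0.5) (limma adjusted p = 0.00132), but not there without a filter (limma adjusted p = 0.0128). By sign alone, HBA1+HBA2 and HBE1 were below 0 on each scale tried, and HBZ and AHSP were not below 0 on any. Genes shorter than 1000 bases, such as the globins, had a median log2 fold change of -0.098 under TMM and longer genes one of 0.03, and after removal of this length trend HBZ was at 0.17 (limma adjusted p = 0.00342). In TPM the groups did not overlap for HBZ, HBA1+HBA2, HBE1 and AHSP, as for 44.4% of all genes tested, 38.7% higher and 5.71% lower. Myeloid and megakaryocytic markers moved in the same libraries: LYZ had a log2 fold change of 0.96, ITGA2B of 1.91 and THBS1 of 3.31, all called. GP1BB, which held most of the summed megakaryocytic level, was called lower (-0.45), from a mean of 131 to 103 TPM, whereas ITGA2B had means of 1.56 and 5.72 TPM and THBS1 of 0.169 and 1.99 TPM. Also, 3 of 15 tested erythroid markers were called lower, where 4.86% of all genes tested were called lower. The summed TPM of the erythroid markers was 1774 to 1835 against 1726 to 1776 in SCR. The part of all these markers in the results was not tested.

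**Figure D2:**
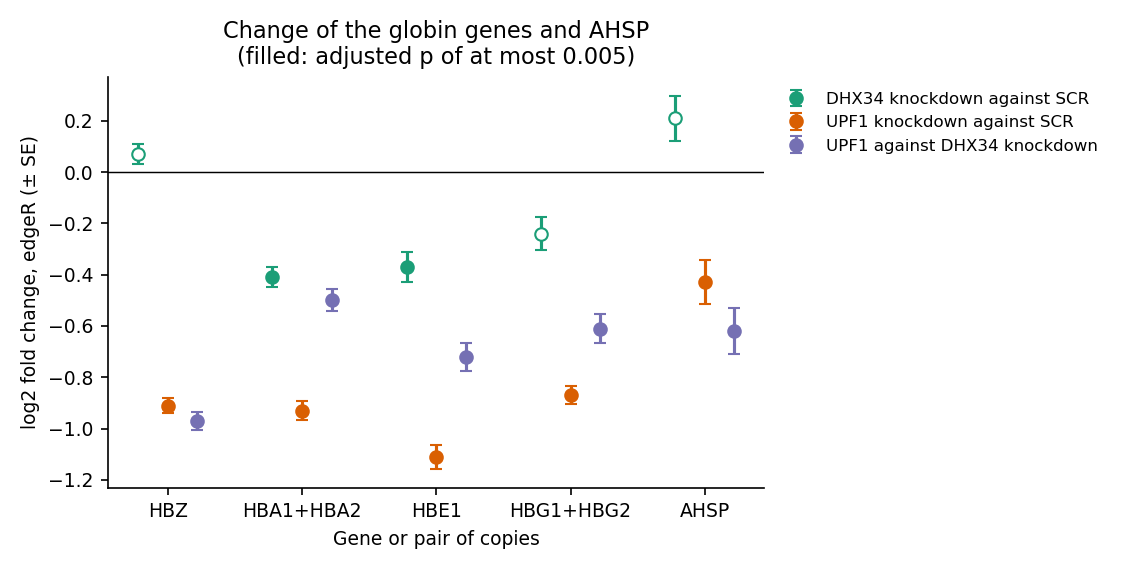
Log2 fold change from edgeR with its SE for the 5 units in 3 comparisons, filled where the adjusted p is at most 0.005. After UPF1 knockdown the units run from -1.11 for HBE1 to -0.43 for AHSP, and after DHX34 knockdown from -0.41 for HBA1+HBA2 to 0.21 for AHSP.

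The difference between the knockdowns was tested directly, without the SCR libraries. All 5 units were called lower in the UPF1 than in the DHX34 knockdown, where 17.3% of the 17433 genes tested were called, 7.46% lower and 9.89% higher. HBZ differed most, by a log2 fold change of -0.97 (SE 0.034, adjusted p = 1.66e-08 in edgeR), from 1998 to 2085 TPM in the DHX34 knockdown to 1037 to 1090 in the UPF1 knockdown. HBE1 had -0.72 (SE 0.054, adjusted p = 3.29e-06 in edgeR), AHSP -0.62 (SE 0.091, adjusted p = 0.000388 in edgeR) and HBG1+HBG2 -0.61 (SE 0.055, adjusted p = 1.11e-05 in edgeR). HBA1+HBA2 had the smallest difference at -0.50 (SE 0.043, adjusted p = 8.16e-06 in edgeR). The median of all genes lay at 0.009 under TMM and 0.039 in TPM here, so the scales nearly coincide. In TPM the knockdowns did not overlap for any of the 5 units, as for 40.4% of all genes tested, 16% in the same direction.

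The make-up of the globin mRNA was then compared per library. The 6 globin genes together made 3.612%, 3.488% and 3.468% of the TPM of the 58214 matched genes in SCR, 3.237%, 3.301% and 3.108% with DHX34 depleted and 2.091%, 2.087% and 2.156% with UPF1 depleted. The 3 groups did not overlap. For each share and ratio below, 3 libraries against 3 allow an exact two-sided permutation p of 0.10 at the least, and groups that did not overlap all have that value, or 0.14 after adjustment over the 7 measures of a comparison, so none can pass a limit of 0.05.

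The balance of alpha-like to beta-like mRNA overlapped between all groups. Its log2 ratio was -1.146 ± 0.074 in SCR, -1.206 ± 0.1 with DHX34 depleted and -1.132 ± 0.122 with UPF1 depleted (SD, n = 3 each). Within the alpha-like mRNA, HBZ made 16.935%, 16.26% and 16.508% in SCR, 21.964%, 21.492% and 21.638% with DHX34 depleted and 16.133%, 16.098% and 17.663% with UPF1 depleted. The zeta share was thus higher in all 3 DHX34 knockdown libraries than in any other library, and SCR and UPF1 knockdown overlapped. A share within a library does not depend on how libraries are scaled. Within the beta-like mRNA the embryonic HBE1 made 23.951% ± 0.345 in SCR, 22.509% ± 0.384 with DHX34 depleted and 20.527% ± 0.638 with UPF1 depleted (SD, n = 3 each), without overlap. Zeta and epsilon, both embryonic, therefore had shares that differed from SCR in opposite directions in the DHX34 knockdown.

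The split between the paired copies differed by a few percentage points or less. HBA2 made 23.607% ± 0.411 of the alpha globin TPM in SCR, 23.426% ± 0.44 with DHX34 depleted and 22.565% ± 0.136 with UPF1 depleted (SD, n = 3 each). For this share SCR and DHX34 knockdown overlapped, and the UPF1 knockdown libraries lay below both. HBG2 made 69.896% ± 0.439 of the gamma globin TPM in SCR, 68.58% ± 0.158 and 66.621% ± 0.124 in the DHX34 and UPF1 knockdowns (SD, n = 3 each), without overlap between any of the groups. In expected counts the HBG2 share was lower, 62.4%, 60.8% and 58.8%, because the authors' tables give the main HBG1 transcript 779 bases and that of HBG2 614, so the split depends on the lengths used. The level of AHSP relative to alpha globin mRNA was higher in both knockdowns. The log2 ratio of AHSP to HBA1+HBA2 was -8.306, -8.396 and -8.342 in SCR, -7.618, -7.752 and -7.815 with DHX34 depleted and -7.721, -7.917 and -7.842 with UPF1 depleted. All knockdown libraries lay above all SCR libraries and the knockdowns overlapped each other.

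**Figure D3:**
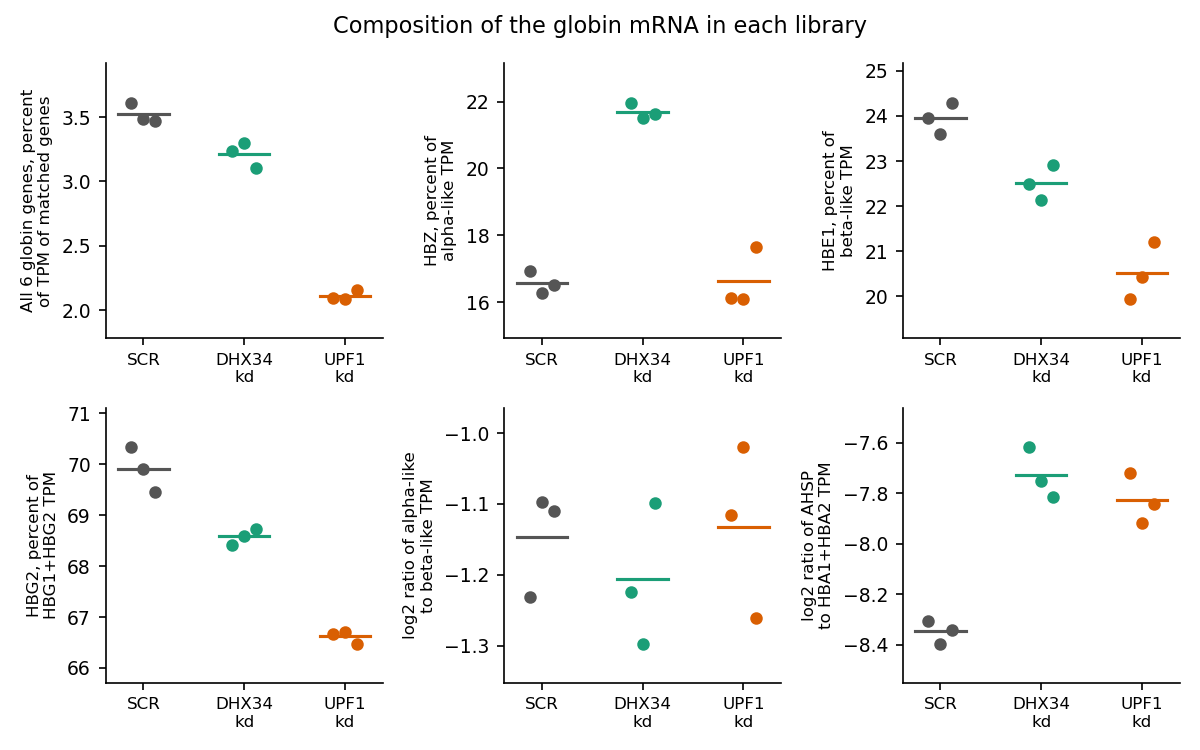
Share or log2 ratio per library, computed from TPM, with 3 points per group and a bar at the mean, on axes that do not start at 0. HBZ makes 21.5% to 22.0% of the alpha-like mRNA in the DHX34 knockdown against 16.1% to 17.7% elsewhere, while the alpha to beta ratios of the 3 groups overlap.

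The change of each gene was next traced to its transcripts. The 7 genes have 20 transcripts in the deposited tables, of which 18 had a mean of at least 1 TPM in a group. After UPF1 knockdown 7 of 18 tested transcripts were called lower and none higher by edgeR (10 lower and 0 higher at an unadjusted p under 0.05), where 2.59% of 62497 transcripts were called and 1.62% were called lower. After DHX34 knockdown edgeR called 0 of 18, where 0.0463% of 60416 transcripts were called and 0.0116% were called lower. At an unadjusted p under 0.05, 9 were lower and 0 higher, and DESeq2 made 6 calls. The unadjusted counts after either knockdown and the DESeq2 calls stand without a share of all transcripts. No result is read from them. In the direct comparison 5 of 17 were called lower, where 1.05% of 64325 were called and 0.32% were called lower. The 6 main transcripts HBZ-201, HBA1-201, HBA2-201, HBE1-203, HBG1-201 and HBG2-201 were all among the 7 called after UPF1 knockdown, with HBA2-202 as the other. These calls depended on single libraries: 3 were left without SCR replicate 1, 4 without SCR replicate 3, 2 without UPF1 knockdown replicate 1 and 3 without UPF1 knockdown replicate 2. With a replicate block 0 were left.

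HBE1 showed the contrast between transcripts most clearly. HBE1-203, which starts beside the coding exons, stood at 5589, 5145 and 5283 TPM in SCR and 2445, 2443 and 2797 TPM in the UPF1 knockdown, a log2 fold change of -1.32 (SE 0.069, adjusted p = 0.000581 in edgeR). HBE1-201 and HBE1-202 start in an exon 235.7 kb upstream and encode the same 441 coding bases. Before the start codon HBE1-201 has 350 bases with 6 ATG triplets and HBE1-202 has 345 with 5, against 55 bases with 0 in HBE1-203. HBE1-201 stood at 200.4, 207 and 210.4 TPM in SCR and 210.4, 217 and 223 TPM in the UPF1 knockdown, with a log2 fold change of -0.18 (SE 0.037, adjusted p = 0.0297 in edgeR) that was not called. HBE1-202 averaged 108 ± 4.22 TPM and 120 ± 1.91 TPM (SD, n = 3 each), with -0.10 (SE 0.047, adjusted p = 0.261 in edgeR). Neither distant-start transcript passed the test. Both had a higher mean TPM than in SCR but a log2 fold change below 0 under TMM, so their direction depended on the scale. Together they made 5.3%, 5.72% and 5.66% of HBE1 in SCR, 5.56%, 5.7% and 5.26% with DHX34 depleted and 12.0%, 12.1% and 10.9% with UPF1 depleted. The share in the UPF1 knockdown lay above all other libraries (exact permutation p = 0.1 against SCR, 0.158 adjusted over 19 shares), an alternative to the single fits that was chosen after their values were seen.

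The gamma globins had a like pattern. HBG2-201 fell from 12510 ± 552 TPM in SCR to 7426 ± 268 with UPF1 depleted (SD, n = 3 each), with a log2 fold change of -1.01 (SE 0.045, adjusted p = 0.000415 in edgeR). HBG2-202, whose first exon lies 250.8 kb upstream and whose leader of 328 bases holds 6 ATG triplets, was at 29.4, 28.6 and 26.7 TPM and at 36.2, 33.8 and 30.3 TPM, with -0.01 (SE 0.087, adjusted p = 0.974 in edgeR). Here too TPM was higher than in SCR while the TMM estimate was not. Its share of HBG2 was 0.225% ± 0.00568 in SCR and 0.448% ± 0.0508 with UPF1 depleted (SD, n = 3 each), without overlap. HBG1-201 had -0.79 (SE 0.043, adjusted p = 0.000649 in edgeR). HBG1-202, in which the annotated coding part ends in exon 2, 187 bases before the last exon junction, had -0.30 (SE 0.15, adjusted p = 0.314 in edgeR) and stood at 42.8 ± 2.25 TPM in SCR and 41.2 ± 6.31 with UPF1 depleted (SD, n = 3 each). HBG2-203 ends in the same way, and with 9.46 ± 1.46 TPM in SCR its log2 fold change of -0.17 (SE 0.35, adjusted p = 0.853 in edgeR) was poorly determined.

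In HBA2 both coding transcripts were called. HBA2-201 had a log2 fold change of -1.30 (SE 0.03, adjusted p = 7.36e-05 in edgeR) and HBA2-202, whose exon 1 is shorter and whose coding part starts in exon 2 after 1 leader ATG, had -0.59 (SE 0.068, adjusted p = 0.00438 in edgeR). HBA2-202 made 31.0%, 31.0% and 32.5% of HBA2 in SCR, 29.7%, 30.6% and 29.1% with DHX34 depleted and 43.5%, 43.7% and 41.1% with UPF1 depleted. HBA1-202, built alike, made only 0.703% ± 0.115 of HBA1 in SCR and 0.934% ± 0.237 with UPF1 depleted (SD, n = 3 each), which overlapped. HBZ had a single quantified transcript, HBZ-201, with -0.96 (SE 0.028, adjusted p = 9.88e-05 in edgeR). AHSP-201 made 90.6% to 97.6% of AHSP in SCR and had -0.46 (SE 0.1, adjusted p = 0.042 in edgeR). The retained-intron transcripts HBA2-203 and HBA1-204 averaged 6.72 and 3.03 TPM in SCR. After UPF1 knockdown they had -0.69 (SE 0.32) and -0.01 (SE 0.5). HBA2-204 and AHSP-203 averaged 1.25 and 1.46 TPM in SCR and had -1.63 (SE 1.6) and -1.04 (SE 0.93). None of these low transcripts was called. Transcripts of a gene share most of their bases, so these values also carry how salmon divided the reads.

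**Figure D4:**
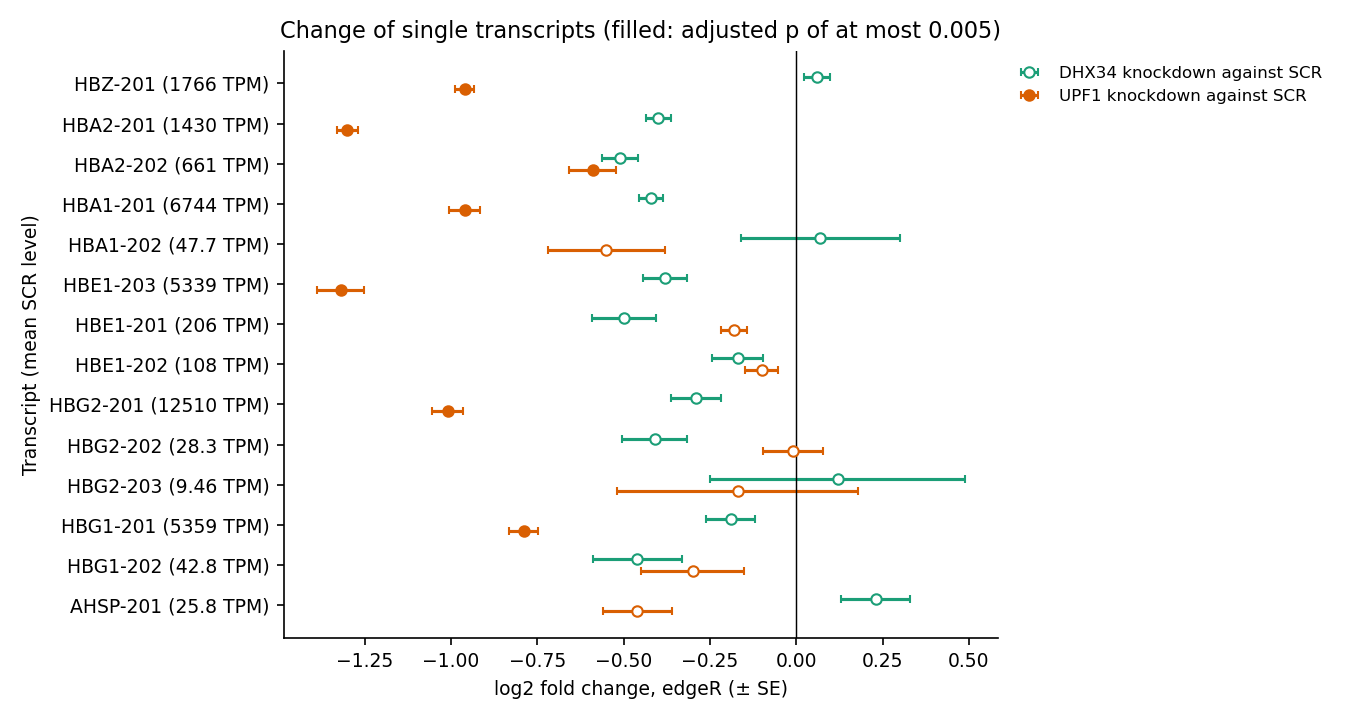
Log2 fold change from edgeR with its SE for 14 transcripts against SCR, filled where the adjusted p is at most 0.005, with the mean SCR level in brackets. In the UPF1 knockdown HBE1-203 lies at -1.32 and the distant-start transcripts HBE1-201 and HBE1-202 at -0.18 and -0.10.

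Related genes were read from 6 lists of known roles. Their counts of calls stand against 25.3% of all genes called after UPF1 knockdown (12.9% lower) and 10.4% after DHX34 knockdown (4.86% lower). Counts at an unadjusted p have no such share beside them, so no result is read from those. Of 5 tested other globin genes 4 were called lower after UPF1 knockdown, and their median log2 fold change was -0.82 against 0.016 over all genes tested. They were BGLT3, a noncoding RNA of the beta globin locus (-1.39), HBD, the delta globin (-0.98), the pseudogene HBBP1 (-0.82) and HBQ1, the theta globin (-0.55). HBD shows the size of this in TPM, from a mean of 43.6 in SCR to 25.6, with 43.3 in the DHX34 knockdown. After DHX34 knockdown edgeR called 0 of these 5, with 1 higher and 3 lower at an unadjusted p under 0.05.

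Among 25 tested transcription factors and cofactors of globin genes, 9 were called lower and 2 higher after UPF1 knockdown, with a median of -0.10. The largest changes were those of LMO2 (-0.66), the bridge of the GATA1 and TAL1 complex, NFE2 (-0.48) and ZFPM1 (-0.47), a cofactor of GATA1. After DHX34 knockdown 3 were called lower and 2 higher, and there ZFPM1 was called higher (0.33) and LMO2 lower (-0.27). Of 17 heme synthesis and transport genes 7 were called lower and 2 higher after UPF1 knockdown, and 2 lower and 1 higher after DHX34 knockdown. The erythroid entry enzyme ALAS2 had -0.68 and ALAD, the next enzyme after ALAS2, 0.54 after UPF1 knockdown. The medians were -0.12 in the UPF1 and 0.01 in the DHX34 knockdown.

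The calls in the remaining lists depended more on the scale. Of 12 genes for proteins that bind globin or related mRNAs, 10 were called lower and 1 higher after UPF1 knockdown, but only 3 of the 10 were also lower in mean TPM. The largest were YBX1 (-0.41), PCBP1 (-0.31) and PCBP2 (-0.25), the last pair known to bind the alpha globin mRNA. Of 16 genes for chaperones and protection from oxidants 9 were called lower, 4 of them also in mean TPM. The largest changes of the 9 were those of SOD1 (-0.31), HSPB1 (-0.27) and ALDH1A1 (-0.25). ALDH1A1 was not lower in mean TPM, at 15.3 against 15.1 in SCR. Of 10 genes beside the alpha globin locus 3 were called lower and 0 higher, a share near the 25.3% called over all genes. They were MPG (-0.23), AXIN1 (-0.18) and NPRL3 (-0.17), and NPRL3, whose introns hold enhancers of the alpha globin genes, stood at a higher mean TPM (38.6) than in SCR (35.2). The medians of these 3 lists were -0.19, -0.14 and -0.03. After DHX34 knockdown 2, 2 and 0 genes of these lists were called lower and 0, 1 and 1 higher by edgeR. At an unadjusted p under 0.05, 8, 8 and 4 were lower and 1, 1 and 4 higher, again without a share of all genes beside them.

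**Figure D5:**
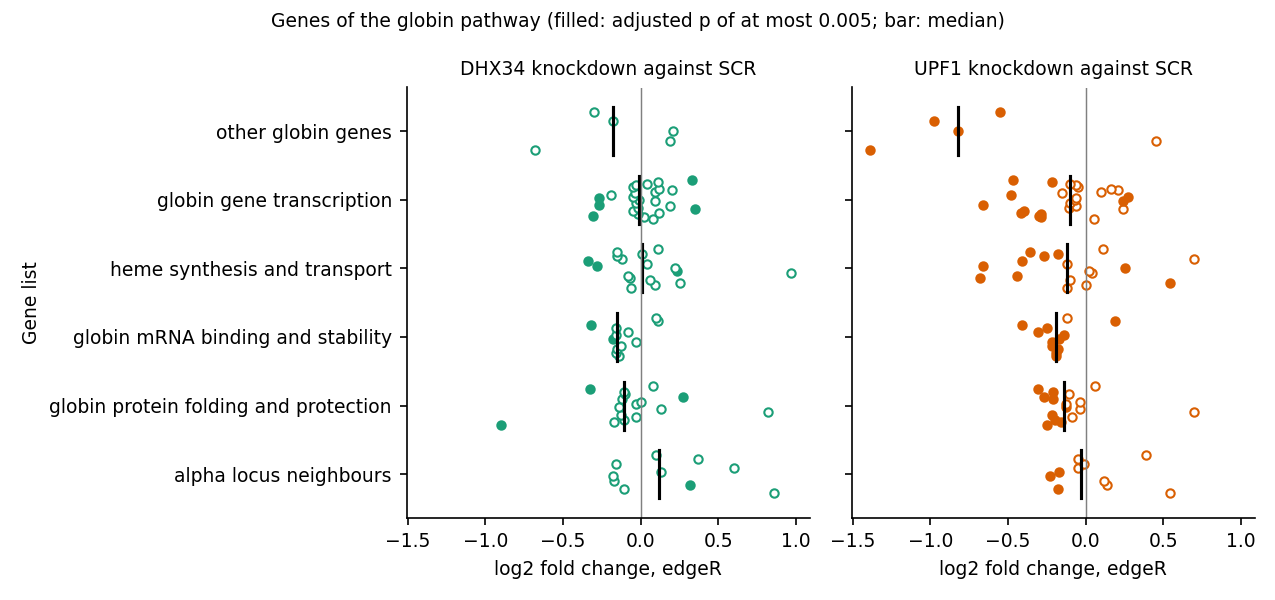
Log2 fold change from edgeR of each tested gene in 6 lists, filled where the adjusted p is at most 0.005, with a bar at the list's median. After UPF1 knockdown the median of the other globin genes lies at -0.82 and those of the other lists between -0.19 and -0.03.

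The genes whose pattern was most like that of the globins were sought among the 7324 genes that averaged 20 CPM (counts scaled to the library total) or more. Likeness was the mean absolute difference of log2 CPM, centered on the SCR mean, over the 6 knockdown libraries. The globin sum lay at -0.19 in the DHX34 and -0.82 in the UPF1 knockdown. Nearest to it were ID1, an inhibitor of transcription factor binding (0.078, at -0.30 and -0.78), HBD (0.102), the secretogranin SCG3 (0.107), the unnamed ENSG00000284931 (0.109) and the actin regulator TWF1 (0.126). AHSP lay at 0.29 and -0.32 on the same scale, and nearest to it were ZNF385A (0.066), SELENBP1 (0.073), IFI30 (0.075), PPP1R18 (0.075) and DDR1 (0.079). All values come from the same 9 libraries and are a description only.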

How the data were processed

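Poly(A) RNA was sequenced from 9 K562 libraries, 3 for each siRNA, grouped by the treatment label. The authors quantified transcripts with salmon (GRCh38) and deposited, per library, expected counts and TPM for 203027 transcripts. The deposited expected counts are estimates that divide shared reads between transcripts and need not be whole. The deposited TPM values are scaled by transcript length and library, so they follow the lengths salmon used. The authors' comparison tables, which hold sleuth p-values and effects and changes in splicing, were not used.

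Of the transcripts, 198775 (97.9%) matched GENCODE release 44 and were summed into 58214 genes. HBA1 with HBA2 and HBG1 with HBG2 were summed in the main fit and kept apart in a second. Rounded expected counts were tested with the quasi-likelihood test of edgeR 4.0.16 in R 4.3.3 (TMM scaling, filterByExpr, the libraries of the compared groups only), with Benjamini-Hochberg adjustment over all features tested and calls at an adjusted p of at most 0.005. Transcripts were fitted likewise. Shares and ratios were computed from TPM and compared by exact two-sided permutation tests. Alternatives used DESeq2 1.42.0, limma 3.58.1 on log2(TPM + 0.5), other scalings, filters and pseudocounts, removal of a gene length trend, a replicate block and omission of each library.

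In simulated gene counts, edgeR called 71.4% of 2-fold changes (log2 of 1) and 38.4% of changes of log2 0.4 for DHX34 knockdown against SCR over 16715 genes, and 68.8% and 46% for UPF1 knockdown over 16834 genes. For transcripts it called 10.1% and 7.6% of the changes of log2 1 in these comparisons, over 56381 and 57995 transcripts. Of those of log2 0.4 it called 0%. The changed genes and transcripts were drawn at random from all tested. These shares therefore do not tell how often a change in an abundant globin gene or transcript would be called. A gene or transcript that was not called is not shown to be unchanged. Named were all 7 genes, their transcripts with a mean of at least 1 TPM in a group, up to 3 called genes per list with the largest change after UPF1 knockdown, and the 5 genes nearest in pattern. 1 gene that these rules would name is not reported here. HBQ1, the last of the 4 called genes of its list, the marker genes, GATA1, KLF1, TFRC and those given for the DHX34 knockdown were named after their values were seen. Members and lists were chosen with earlier results of these data known.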

Additional observations from a re-analysis of the deposited data

Results flagged for a closer look

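Both knockdowns were set against SCR, and the difference between them was tested directly with edgeR. Each of the 5 units differed, with log2 fold changes of UPF1 against DHX34 knockdown of -0.97 for HBZ, -0.50 for HBA1+HBA2, -0.72 for HBE1, -0.61 for HBG1+HBG2 and -0.62 for AHSP. All were called, and in TPM the 3 UPF1 knockdown libraries lay below the 3 DHX34 knockdown libraries for each unit. The cause was not tested.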

How the results depend on the processing

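No log2 fold change of the 7 genes or summed copies changed sign under any alternative run. After DHX34 knockdown 2 units were called in the main fit, against 1 by limma on log2(TPM + 0.5) with the median of all genes set to 0 (an alternative chosen after the data were seen), 0 by limma on log2(TPM + 0.5) without a filter, 0 with a replicate block and the length trend removed, and 1 to 2 without single libraries. Other alternatives called 3 units after DHX34 knockdown: library totals, no filter on low counts, DESeq2 and a fit of all 9 libraries. Limma on log2 TPM with each pseudocount, removal of the length trend and an adjusted p of at most 0.05 also gave 3. The units called were not the same in all of these. After UPF1 knockdown 4 to 5 units were called without single libraries, and 5 in each such fit of UPF1 against DHX34 knockdown.

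For DHX34 knockdown against SCR, HBZ was called at 0.15 with library totals, 0.22 in TPM with each pseudocount (0.5, 0.1 and 1) and 0.17 with the length trend removed. HBA1+HBA2 lost its call at -0.26 in TPM without a filter and at -0.31 with a replicate block and the length trend removed. HBE1 lost its call at -0.20 in TPM with each pseudocount and without a filter, at -0.42 with the TPM median set to 0 and at -0.27 with a replicate block and the length trend removed, and it ran from -0.42 to -0.31 without single libraries. HBG1+HBG2 was called at -0.24 without a filter, -0.25 by DESeq2 and -0.25 in a fit of all 9 libraries. AHSP was called at 0.35, 0.35 and 0.34 in TPM with pseudocounts of 0.5, 0.1 and 1.

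For UPF1 knockdown against SCR, AHSP lost its call at -0.32 with library totals, -0.43 with length-scaled TPM as counts, -0.20, -0.21 and -0.20 in TPM with pseudocounts of 0.5, 0.1 and 1, -0.20 in TPM without a filter and -0.31 with the length trend removed, with and without a replicate block. It ran from -0.48 to -0.38 without single libraries. Against DHX34 knockdown AHSP lost its call at -0.55 in TPM without a filter. Transcript calls after DHX34 knockdown were 6 by DESeq2 and 1 without a filter, against 0. Without single libraries they were 2 to 6 after UPF1 knockdown, against 7, and 1 to 5 in the direct comparison, against 5.

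Deviations from the group mean had correlations of -0.077 to 0.086 between same-numbered libraries of different groups and of -0.093 to 0.063 between the others. No shared effect of the number was seen. That cannot exclude cultures run in numbered rounds, which the labels do not describe. With a replicate block alone, 2, 5 and 5 units were called in the 3 comparisons, as without it, and 0 transcripts in each. Without single libraries the difference in the HBA2 share ran from -0.398 to 0.051 percentage points after DHX34 knockdown. After UPF1 knockdown the difference in the HBZ share ran from -0.452 to 0.33 and that in the alpha to beta log2 ratio from -0.042 to 0.078, with -0.005 in expected counts. The cause of these changes was not tested. The AHSP counts, the lowest of the 7 genes, limit its precision.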
